A study of Mus musculus with 10 samples.

Results

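The miR-34 family with its relative miR-449a was read on 10 one-colour mouse microRNA arrays, 5 of T-C cell samples and 5 of control cell samples. Its members are the array rows named after the miR-34a, miR-34b, miR-34c and miR-449a hairpins, either arm, which gave 8 of the 1892 miRNAs on the array. They are the 5p and the 3p strand of each hairpin. The T-C cell samples carry the source label Col-/- and the control cell samples the label Control Col. The protocol labels are the same for both groups and name 0.5 mg TN-CF per 100000 T-C cells in a dish for 24 hours and a control. All samples are male mouse total RNA described as sle liver and cultured under a liver cell protocol. What Col, T-C, TN-CF and sle stand for is not stated, and the design text writes TB-CF. The comparison sets T-C cells against control cells, and the effects of treatment and source label cannot be told apart. Whether the 5 samples of a group were separate animals or cultures is not stated, so the spread behind each p-value may be technical.

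The genes Mir34a, Mir34b and Mir34c are transcriptional targets of p53, the tumour suppressor that responds to DNA damage. Their 5p strands repress cell cycle and survival genes such as Cdk6, Ccnd1, Met and Bcl2, and in liver miR-34a is known for its repression of the deacetylase Sirt1. The miR-449 hairpins are not usual p53 targets, but their 5p strands have the same seed, the bases that pair with target mRNAs. miR-34b, miR-34c and miR-449 are best known from multiciliated cells and testis. In all 4 hairpins the 5p strand is usually taken to be the active one, and the 3p strand has another seed and hence other targets.

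The mature sequences are shown because the seeds divide the members by arm. Capitals mark the seed, bases 2 to 8 from the 5′ end.
mmu-miR-34a-5p: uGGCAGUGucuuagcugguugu
mmu-miR-34b-5p: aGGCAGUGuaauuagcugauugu
mmu-miR-34c-5p: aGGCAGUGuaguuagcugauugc
mmu-miR-449a-5p: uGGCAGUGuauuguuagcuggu
mmu-miR-34b-3p: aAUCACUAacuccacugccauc
mmu-miR-34c-3p: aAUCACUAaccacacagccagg
mmu-miR-34a-3p: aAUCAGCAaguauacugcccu
mmu-miR-449a-3p: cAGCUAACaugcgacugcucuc
The seed GGCAGUG stood in 6 rows of the array, the 5p strands of the 4 hairpins and, outside the members, miR-449b and miR-449c-5p. The seed AUCACUA stood in 2 rows only, miR-34b-3p and miR-34c-3p. The 3p seeds of miR-34a and miR-449a occurred in 1 row each. Of the 8 sequences on the array, 7 were identical to the RefSeq entry (GRCm38.p6), and miR-34c-5p had no listed mature entry to compare with.

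Mir34b and Mir34c lie 451 bases apart on the minus strand of chromosome 9, within an intron of Btg4, which runs on the other strand. Their hairpins (RefSeq, GRCm38.p6) are shown with the 3p strand in capitals, since these 2 strands carry the differences described here.
Mir34b, chr9:51103562-51103645, minus strand: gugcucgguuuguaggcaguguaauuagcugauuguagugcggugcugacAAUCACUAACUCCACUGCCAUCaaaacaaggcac
Mir34c, chr9:51103034-51103110, minus strand: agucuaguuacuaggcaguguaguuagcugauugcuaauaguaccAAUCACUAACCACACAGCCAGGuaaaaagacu
miR-34b-3p and miR-34c-3p were identical at 17 of 22 positions, with the first 10 bases shared. Counted from the 5′ end of miR-34b-3p, they differ by U11C, C12A, U16A, U21G and C22G. miR-34b-5p and miR-34c-5p were identical at 21 of 23 positions and differ by A11G and U23C. Strands this alike may share signal on an array, and that part was not tested. Mir34a lies on chromosome 4 (150068454 to 150068555, plus strand), where it overlaps an exon of the unclassified transcript Gm37795. Mir449a lies on chromosome 13 (113037534 to 113037624, plus strand) in an intron of Cdc20b.

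The arrays differed in background. A miRNA counted as detected on an array where its 2 spots averaged over 3 SD above the mean of the 16 blank spots, a limit of 133 to 474 in T-C cell arrays and 64.0 to 319 in control cell arrays. The highest limit was that of T-C cell replicate 3 and the lowest that of control cell replicate 5, and the arrays gave 189 to 668 and 319 to 1314 detected miRNAs. On the first principal component of the tested miRNAs T-C cell replicate 1 stood apart at −15.8, with the other arrays between −5.10 and 8.05. The defining hepatocyte miRNA, miR-122-5p, was detected on 1 of 10 arrays, averaging 138 raw on the T-C cell arrays and 121 raw on the control cell arrays. miR-192-5p and miR-194-5p, listed below with the hepatocyte markers, were detected on 10 of 10. So were miR-200b-3p of the epithelial list and miR-143-3p of the mesenchymal list.

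Of the 8 members, 3 were bright enough to be tested, meaning detected on at least 5 of 10 arrays. These were miR-34c-3p, miR-34b-3p and miR-34a-5p. Both 3p strands of the chromosome 9 hairpins fell in T-C cells, miR-34c-3p by 2.80-fold (95% interval 1.67 to 4.69) and miR-34b-3p by 2.22-fold (1.43 to 3.46), while miR-34a-5p did not pass. The 5p strands of Mir34b, Mir34c and Mir449a stayed at the level of the blank spots in both groups. Over all tested miRNAs, 30 of 476 were called lower, or 6.30%, and 7 higher, or 1.47%. Without adjustment 2 of the 3 tested members and 18.3% of all tested miRNAs had a p under 0.05. The normalized levels of the groups overlapped for all 3, while they did not overlap for 3.78% of tested miRNAs, with T-C cells lower for 1.89%. Folds and log2 values are on the scale of normalized log2(intensity + 50), which understates changes close to background. Fewer cells of a type and less RNA per cell cannot be told apart in such samples.

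**Figure D1:**
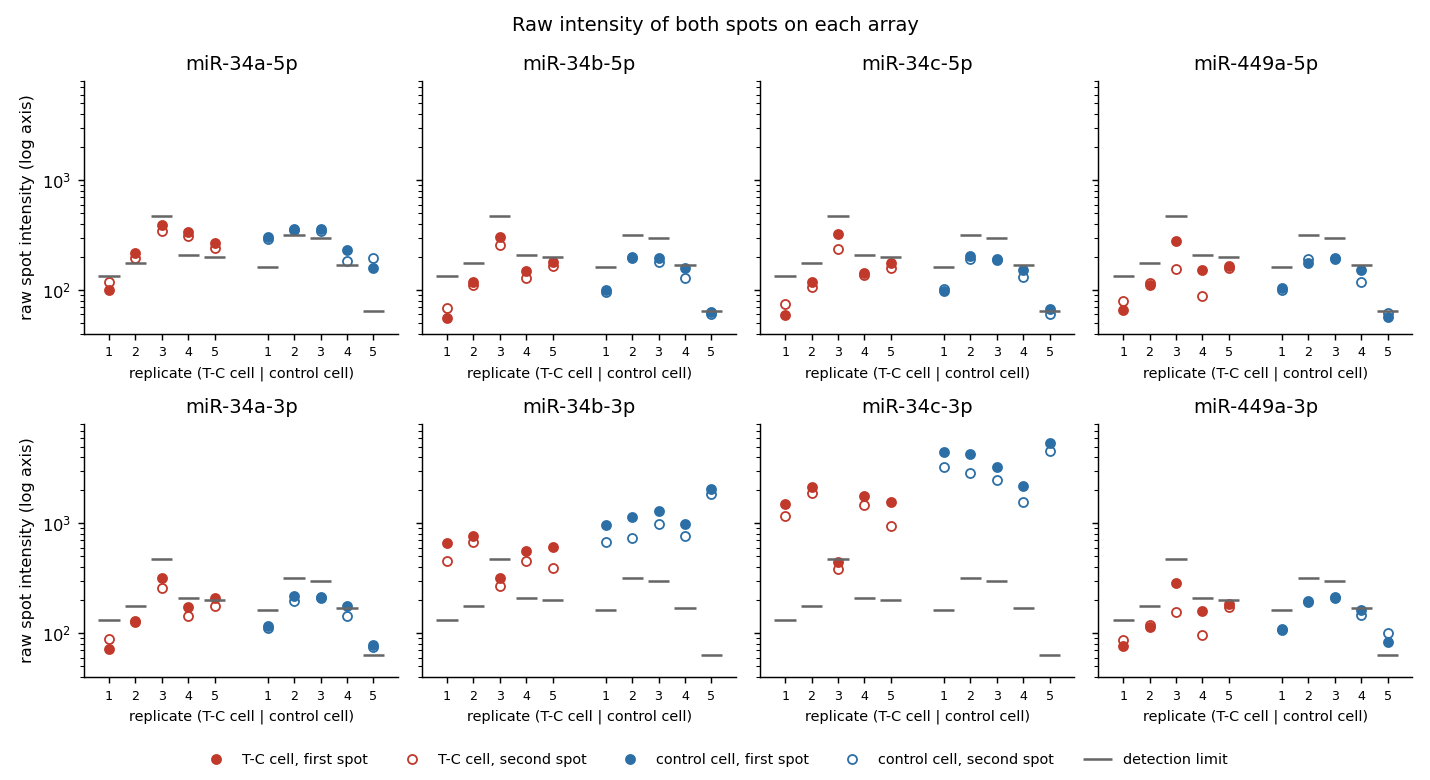
Raw intensity (log axis) of the first spot (filled) and second spot (open) of each member on the 5 T-C cell arrays (left in each panel) and the 5 control cell arrays (right), with each array's detection limit as a grey line. miR-34b-3p and miR-34c-3p stand above the limit on 9 of 10 arrays, T-C cell replicate 3 being the exception, and the 5p strands of Mir34b, Mir34c and Mir449a lie at or under it.

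miR-34c-3p, the passenger-side strand of Mir34c, was the brightest member. As the mean of its 2 spots it had raw intensities of 1333, 2005, 416, 1615 and 1264 on T-C cell arrays 1 to 5, against 3857, 3585, 2863, 1879 and 4938 on control cell arrays 1 to 5. Control cell replicate 4 was the low control and lay under T-C cell replicate 2, so the groups overlapped by that pair. T-C cell replicate 3 was the lowest of all and was under its array's detection limit of 474. After normalization the log2 level was 10.20 ± 0.73 in the T-C cells and 11.68 ± 0.49 in the control cells (SD, n = 5 each). Its log2 difference was −1.48 (SE 0.34, 95% interval −2.23 to −0.74, limma adjusted p = 0.0400), and 4 of 5 T-C cell samples lay below every control cell sample. By size it was the 12th largest decrease among the 476.

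Ranks of raw brightness within an array, which need no normalization, gave a like picture. Among the 1892 miRNAs miR-34c-3p ranked 137, 71, 214, 101 and 99 on T-C cell arrays 1 to 5, against 43, 37, 54, 78 and 35 on control cell arrays 1 to 5, where 1 is the brightest. The ranks overlapped by T-C cell replicate 2 and control cell replicate 4, the same pair as the intensities.

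miR-34b-3p, the corresponding strand of Mir34b, was dimmer. Its raw intensities were 558, 726, 295, 504 and 497 on T-C cell arrays 1 to 5, against 824, 942, 1142, 875 and 1959 on control cell arrays 1 to 5. On the raw scale every T-C cell array lay below every control cell array, which held for 2.52% of the tested miRNAs in that direction. T-C cell replicate 3 was again the lowest and under its detection limit, at 1.32 times the mean of its blank spots. After normalization the level was 9.05 ± 0.50 in the T-C cells and 10.20 ± 0.52 in the control cells (SD, n = 5 each), and the groups overlapped, with T-C cell replicate 2 at 9.87 and control cell replicate 1 at 9.83. The log2 difference was −1.15 (SE 0.29, 95% interval −1.79 to −0.51, limma adjusted p = 0.0419), and 4 of 5 T-C cell samples lay below every control cell sample. Within arrays miR-34b-3p ranked 246, 144, 743, 230 and 202 in T-C cell replicates 1 to 5, against 153, 135, 122, 137 and 91 in control cell replicates 1 to 5. The rank of T-C cell replicate 3 was far from the others. As ratios to the blank mean the groups overlapped more. T-C cell replicates 1 and 2 stood at 6.79 and 5.34, against 4.14 and 5.50 in control cell replicates 2 and 3. The other T-C cell replicates, at 1.32 to 3.72, lay under every control cell replicate.

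The duplicate spots of these strands showed a steady technical offset. The first spot was brighter than the second on 10 of 10 arrays for both miRNAs. With the first spots alone the log2 differences were −1.53 for miR-34c-3p and −1.21 for miR-34b-3p, and with the second spots alone −1.45 and −1.12, each with a limma adjusted p between 0.0376 and 0.0467. The difference was thus of like size on either spot.

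Both strands come from neighbouring hairpins, and their levels were set against each other on each array. The normalized log2 level of miR-34c-3p exceeded that of miR-34b-3p by 1.31, 1.25, 0.38, 1.50 and 1.31 in T-C cell replicates 1 to 5 and by 2.00, 1.87, 1.31, 1.06 and 1.17 in control cell replicates 1 to 5. The means were 1.15 ± 0.44 and 1.48 ± 0.43 (SD, n = 5 each), ranges that overlapped widely. Brightness depends on the probe, so this excess does not measure which strand is more abundant.

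The calls of both strands rested on adjusted p-values close to the threshold of 0.05. The miR-34c-3p call ended when T-C cell replicate 1 was left out (limma adjusted p = 0.0670), likewise T-C cell replicate 4 (0.0883), and for the controls when replicate 1, 2, 3 or 5 was (0.0940, 0.0844, 0.0801 and 0.0858). The miR-34b-3p call ended when T-C cell replicate 1, 3 or 4 was left out (limma adjusted p = 0.0670, 0.0713 and 0.0905), and for the controls when replicate 1, 2, 3 or 5 was (0.0940, 0.0844, 0.0828 and 0.0880). The sizes moved less: leaving out single arrays gave log2 differences of −1.72 to −1.22 for miR-34c-3p and −1.37 to −0.92 for miR-34b-3p. An alternative added after seeing the data left out both T-C cell replicates 1 and 3. These are the array that stood apart and the one with the highest detection limit. The log2 differences were then −1.03 for miR-34c-3p and −0.92 for miR-34b-3p (limma adjusted p = 0.0950 and 0.146).

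**Figure D2:**
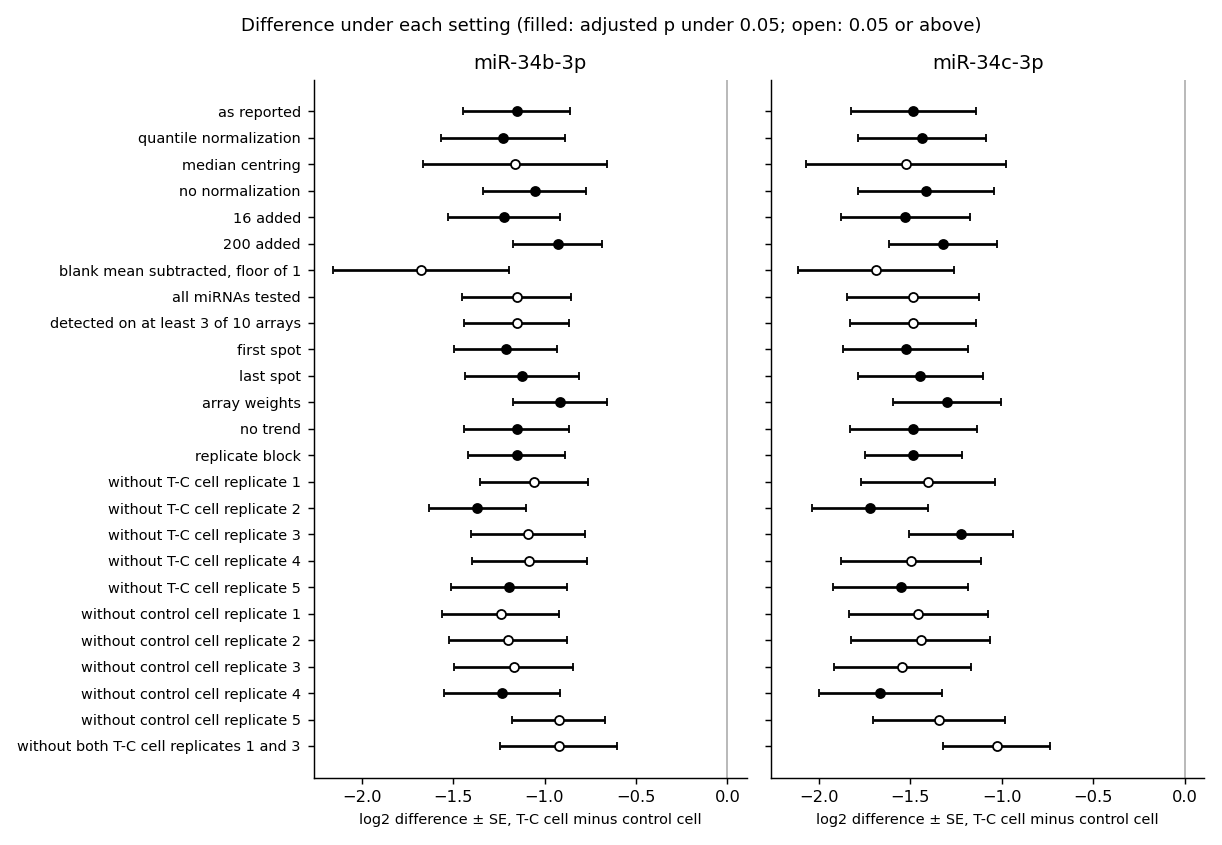
Log2 difference ± SE, T-C cell minus control cell, of miR-34b-3p (left) and miR-34c-3p (right) as reported and under each other setting, filled where the limma adjusted p was under 0.05. Every value lies below 0, between −1.72 and −0.91, and the fill changes between settings.

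miR-34a-5p, the strand of the family best known as a p53 target in liver, was dim. Its raw intensities were 110, 207, 372, 322 and 255 on T-C cell arrays 1 to 5, against 299, 356, 351, 207 and 177 on control cell arrays 1 to 5. The groups overlapped fully, and it was detected on 3 of 5 T-C cell and 5 of 5 control cell arrays. The normalized log2 level was 8.13 ± 0.56 in the T-C cells and 8.45 ± 0.28 in the control cells (SD, n = 5 each). The log2 difference was −0.32 (SE 0.24, 95% interval −0.85 to 0.21, limma adjusted p = 0.603), an interval that holds both no change and a 1.80-fold decrease. T-C cell replicate 1 stood at 7.15, and its group mates ran from 8.23 to 8.48. Relative to the blank mean its log2 intensity was 0.27, against 0.46 to 1.01 for its group mates, so normalization widened the gap. It also placed miR-34a-3p of that array higher, at 7.51, although the raw intensity of miR-34a-3p was lower, at 79.9 against 110. Without that array the difference was −0.05 (limma adjusted p = 0.954).

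The remaining members were close to the blank spots and were not tested. miR-34b-5p was detected on 0 of 10 arrays and miR-34c-5p on 1 of 10, control cell replicate 5. Their raw intensities, as the lowest, median and highest array, were 62.3, 139 and 279 for miR-34b-5p and 66.9, 141 and 279 for miR-34c-5p in T-C cells, against 61.8, 144 and 198 for miR-34b-5p and 64.4, 141 and 197 for miR-34c-5p in control cells. On each array this was 0.758 to 1.27 times the mean of the blank spots for miR-34b-5p and 0.813 to 1.25 times for miR-34c-5p. On the same arrays the 3p strand reached up to 35.7 times the blank mean for miR-34b and 89.9 times for miR-34c. In these samples the array thus gave signal for the 3p strand of both hairpins and little or none above background for the 5p strand, the one usually described as active.

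miR-449a-5p was detected on 0 of 10 arrays, at 0.809 to 1.19 times the blank mean. Its relatives outside the members were also dim, with miR-449c-5p detected on 0 arrays and miR-449b on 2. miR-449b was highest in T-C cell replicate 1, at a normalized log2 level of 8.11 against 7.29 to 7.60 in the other T-C cell arrays. miR-34a-3p and miR-449a-3p were detected on 1 array each, at 0.915 to 1.42 and 0.847 to 1.68 times the blank mean.

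With every miRNA of the array in the fit, the 5 dim members had log2 differences between −0.16 for miR-449a-3p and 0.01 for miR-34b-5p, with limma adjusted p from 0.741 upwards. In that fit 1 of 1892 miRNAs passed, or 0.0529%, and miR-34c-3p and miR-34b-3p did not (limma adjusted p = 0.189 and 0.198). At an unadjusted p under 0.05 it held 3 of the 8 members, miR-34c-3p, miR-34b-3p and miR-449a-3p, and 6.66% of all miRNAs. Levels this near the blanks leave little room for a decrease to show, so a decrease in the 5p strands of Mir34b, Mir34c and Mir449a was not detectable on these arrays.

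**Figure D3:**
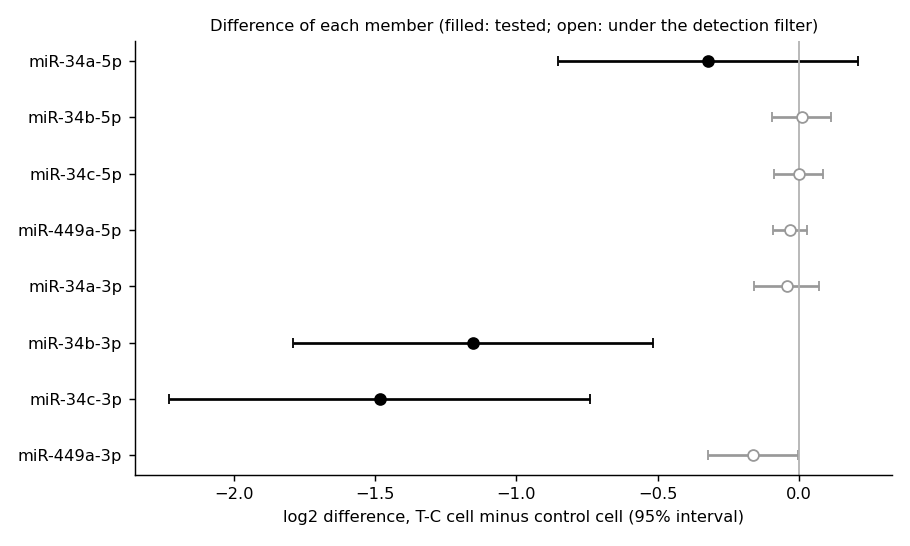
Log2 difference, T-C cell minus control cell, with its 95% interval, for the 5p strands (upper rows) and 3p strands (lower rows). Filled points are the 3 tested members and open points the 5 under the detection filter, from the fit with every miRNA of the array; miR-34b-3p and miR-34c-3p have intervals wholly below 0, as does, narrowly, that of the dim miR-449a-3p (−0.32 to −0.0010, limma adjusted p = 0.741).

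Whether the 3p strand changed apart from the 5p strand was asked within each array, as the normalized log2 level of the 3p minus that of the 5p strand, for the 292 hairpins with both arms on the array and at least 1 arm detected on 5 or more of the 10 arrays. For miR-34c the arm difference was 2.51, 3.60, 1.47, 2.73 and 2.94 in T-C cell replicates 1 to 5, against 4.28, 4.31, 3.94, 3.43 and 4.71 in control cell replicates 1 to 5. For miR-34b it was 1.26, 2.33, 1.08, 1.24 and 1.60 in T-C cell replicates 1 to 5, against 2.31, 2.43, 2.64, 2.34 and 3.58 in control cell replicates 1 to 5. In these normalized levels 4 of 5 T-C cell arrays lay below every control cell array in both hairpins, the exception being T-C cell replicate 2. Normalization shifts the 2 arms of a hairpin by different amounts. As log2 intensity relative to the blank mean, miR-34b-3p and miR-34b-5p stood at 2.20 and −0.24 in T-C cell replicate 1. In control cell replicate 2 they stood at 1.84 and −0.16, a smaller arm difference. Without normalization the T-C cell minus control cell differences of miR-34b and miR-34c were −1.14 and −1.49 (limma adjusted p = 0.311 and 0.238).

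The arm difference of miR-34c was lower by 1.48 in T-C cells (log2 −1.48, SE 0.36, limma adjusted p = 0.0361) and that of miR-34b by 1.16 (log2 −1.16, SE 0.29, limma adjusted p = 0.0380). Among all hairpins tested 26 were lower, or 8.90%, and 9.93% were called in either direction. For miR-34a it was −0.47 ± 0.48 in the T-C cells and −0.74 ± 0.29 in the control cells (SD, n = 5 each), with a difference of 0.28 (95% interval −0.23 to 0.79, limma adjusted p = 0.591). Its 3p strand was at background, so this value is near the 5p difference of −0.32 with its sign turned. Since the 5p strands of Mir34b and Mir34c were at background, these differences are those of the 3p strands nearly unaltered, and a change in the choice of strand cannot be told apart from a change in the amount of both strands. Of the 116 other hairpins with the 3p arm alone past the detection filter, 15 were lower.

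Leaving out single arrays gave arm differences of −1.72 to −1.20 for miR-34c and −1.38 to −0.93 for miR-34b. The miR-34c call ended when T-C cell replicate 1 or 4, or any control but replicate 4, was left out, and the miR-34b call also for T-C cell replicate 3, with limma adjusted p up to 0.0853 for miR-34c and 0.0835 for miR-34b. The miR-449a hairpin was not tested, since neither arm was detected on 5 arrays.

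**Figure D4:**
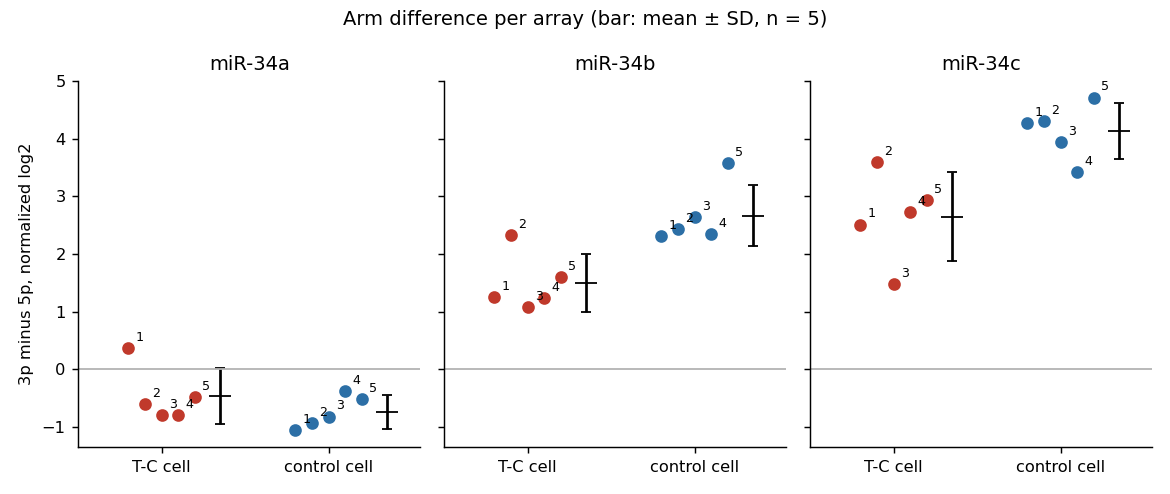
Normalized log2 level of the 3p minus the 5p strand on each array for the miR-34a, miR-34b and miR-34c hairpins, with T-C cell arrays left, control cell arrays right, replicate numbers beside the points and the mean ± SD (n = 5) beside each group. For miR-34b and miR-34c all T-C cell arrays but replicate 2 lie under the control cell arrays.

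The strands that fell were the members richest in A and C, a property the choice of members did not use. Only 3 members were tested, and the others were near background, which leaves little room for a decrease to show. A or C made up 77.3% of the bases of miR-34c-3p and 72.7% of miR-34b-3p, against 61.9% of miR-34a-3p, 59.1% of miR-449a-3p, 34.8% of miR-34b-5p and miR-34c-5p and 22.7% of miR-34a-5p and miR-449a-5p. The 3p strands that were too dim to test thus lay nearer to the fallen strands than the 5p strands did. Among the 28 other miRNAs that fell the median was 68.2%, and among the 439 that did not pass it was 47.6%. Of 48 tested miRNAs with at least 72.7% A or C, 13 were lower and 0 higher, and of 428 with less, 17 were lower. That cut is the share of miR-34b-3p itself, so both fallen members are among the 13 by the choice of the cut. Leaving out the members, the median log2 difference was −0.18 at or above that share and 0.04 under it.

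A search for the letters ACC on the given strand found them in miR-34c-3p and not in miR-34b-3p or any other member. ACC stood in 124 of the 476 tested miRNAs, or 26.1%, and in 27 of the 28 other miRNAs that fell. The letters were noticed in these data, and a match is a description. miR-34b-3p and miR-7b-3p were the only lower miRNAs without ACC. A high share of A or C without ACC did not always go with a decrease. miR-466f-3p (90.5%) and miR-669c-3p (86.4%) lack ACC and differed by −0.06 and 0.16. The lower miRNAs were thus richer in A and C and mostly held ACC, with miR-34b-3p an exception for ACC. The part of base make-up in the values of miR-34b-3p and miR-34c-3p was not tested.

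**Figure D5:**
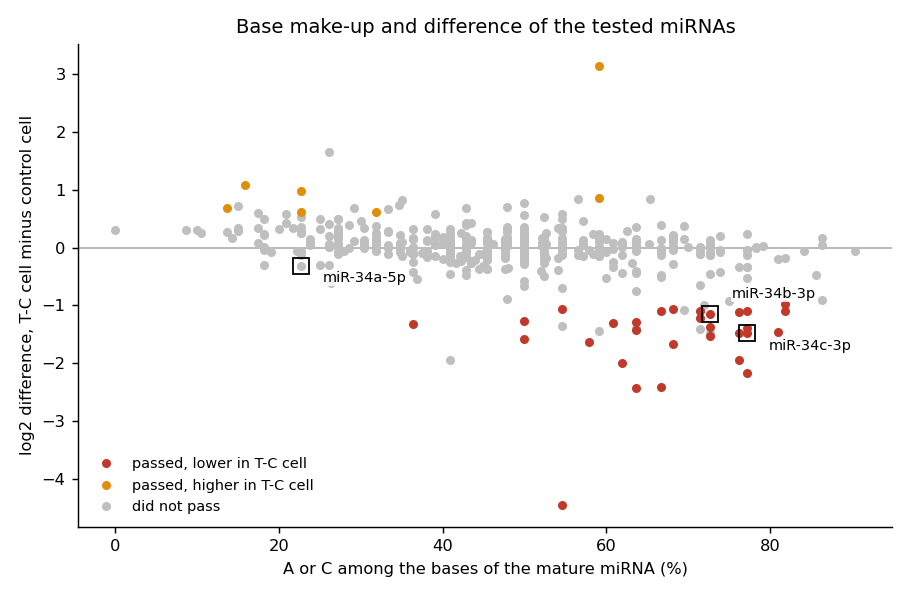
Log2 difference, T-C cell minus control cell, against the percentage of A or C in the mature sequence, 1 point per tested miRNA (476), coloured by whether it passed lower, passed higher or did not pass. The boxed members miR-34b-3p and miR-34c-3p lie among the lower miRNAs at 72.7% and 77.3%, and miR-34a-5p at 22.7%.

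The miRNAs whose profile over the 10 arrays was most like that of the fallen strands were found by the root-mean-square difference of mean-centred log2 levels. For miR-34b-3p they were miR-7b-3p (0.31), miR-654-3p (0.33) and miR-3061-3p (0.36), with miR-34c-3p at rank 7 (0.42) and a median over tested miRNAs of 0.80. For miR-34c-3p they were miR-467a-3p (0.33), miR-196a-1-3p (0.33) and miR-3073b-3p (0.39), with miR-34b-3p at rank 4 and a median of 0.97. Of these 6, all but miR-3073b-3p were themselves called lower (log2 differences from −1.06 to −1.59), and that of miR-3073b-3p was −1.35 (limma adjusted p = 0.0536). The group difference is part of this distance, so profiles near a fallen strand tend to be lower by the way they were found. Each of the pair had a few miRNAs from other loci nearer to it than its cluster neighbour, which still ranked near the top. Whether the pair varied together apart from the group difference was not tested.

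None of the other miRNAs linked to p53 passed the test. Of 15 listed as induced by p53 or processed with its help, 14 were on the array and tested, and 0 passed in either direction, against 37 of all 476, or 7.77%. Without adjustment also 0 of the 14 had a p under 0.05, against 18.3% of all tested miRNAs. Their median log2 difference was 0.00, with 0.02 over all tested miRNAs. miR-215-5p, whose levels were 11.57 ± 1.03 in the T-C cells and 11.04 ± 0.36 in the control cells (SD, n = 5 each), had the largest difference (0.53, 95% interval −0.37 to 1.43, limma adjusted p = 0.610). miR-192-5p, of the same seed family, differed by 0.47 (−0.68 to 1.61, limma adjusted p = 0.731).

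Markers of other cell types were set beside these results. Of the multiciliated list, which shares miR-34b-5p, miR-34c-5p and miR-449a-5p with the members, 0 of 5 were tested and 3 were never detected. In the leukocyte and erythroid list all 7 named miRNAs were on the array and 6 were tested, with miR-142a-3p and miR-142a-5p found under the names miR-142-3p and miR-142-5p by identical RefSeq sequence. Of the 6, 1 rose, the lymphocyte miRNA miR-150-5p by 0.86 (SE 0.23, limma adjusted p = 0.0433), against 1.47% of all tested miRNAs. The others had log2 differences of 0.29 to 0.39 and did not pass, among them the leukocyte strands miR-142-3p (0.34, limma adjusted p = 0.463) and miR-142-5p (0.39, limma adjusted p = 0.368). The median of the 6 was 0.36, with 0.02 over all tested miRNAs. The mean log2 level of the 7 rows was 9.01 to 9.35 on the T-C cell arrays and 8.64 to 8.99 on the control cell arrays, and that of the 5 rows found by name alone was 9.35 to 9.43 on the T-C cell arrays and 8.86 to 9.17 on the control cell arrays. Neither version overlapped between the groups, which held for 3.78% of single tested miRNAs. No such share was taken for means of lists, and both means hold miR-150-5p, the only one that passed. miR-144-3p of that list was detected on 1 array. In the hepatocyte, endothelial, mesenchymal and epithelial lists 0 of 3, 0 of 1, 0 of 5 and 0 of 5 tested members passed, against 7.77% of all tested miRNAs. The mean log2 levels of their rows were 10.42 to 10.68, 9.50 to 9.81, 11.83 to 12.39 and 11.78 to 12.47 in T-C cell arrays, against 10.05 to 10.77, 9.56 to 9.71, 11.86 to 12.08 and 11.88 to 12.47 in control cell arrays. The largest differences in them were those of miR-192-5p and miR-148a-3p (−0.27), miR-126a-3p (−0.01), miR-199a-3p (0.17) and miR-145a-5p (0.08), and miR-200a-3p (−0.37) and miR-429-3p (−0.23). The part of these cell types in the decrease of the 3p strands was not tested.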

How the data were processed

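Per the labels, 1 µg of Trizol-extracted total RNA was tailed, tagged and stained with Cy3 by a service provider (LC Sciences). Per the file headers, the authors deposited the median intensity of each spot, on a linear scale and not scaled between arrays. For the image software, the background treatment and the miRBase release nothing was stated there. Each array held 3784 miRNA spots, 2 per miRNA, and 16 blank spots. The number of arrays limits the precision.

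Values became log2(intensity + 50), were averaged over both spots and were normalized between arrays by cyclic loess (limma 3.58.1, R 4.3.3, jsonlite 2.0.0). Correlations between normalized arrays ran from 0.838 to 0.983, so no array was a copy of another. miRNAs detected on at least 5 of 10 arrays were compared with limma (eBayes with a trend, two-sided, Benjamini-Hochberg over all 476, threshold 0.05). Arm differences were fitted likewise over 292 hairpins. The procedure was run on simulated data with independent noise, which holds no shifts shared across miRNAs and so cannot speak to them. Sample titles gave the groups and numbers. Array numbers in the headers do not interleave between groups, and what they number is not given, so such an order and the group cannot be told apart. The members, lists and tests were chosen with earlier results of these data known. Named were all members, rows sharing a seed, list miRNAs that passed or else the 2 largest per list, and the 3 nearest profiles. Sequences are those of the array files, compared with RefSeq (GRCm38.p6), and the gene context is from GENCODE M21 (Python 3.11.15, matplotlib 3.10.9). miR-605-5p was not used here. The miR-142a strands, first missed by name, were matched to array rows by sequence after the data were seen. Alternatives covered scaling, offset, background, filter, spots, weights, trend, pairing and single arrays.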

Additional observations from a re-analysis of the deposited data

Results flagged for a closer look

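Among the 16 sets of 5 values (8 members in 2 groups), 3 held an array far from the other arrays of its group by Dixon's criterion, which chance gives in about 1 of 20 sets. miR-34a-5p in T-C cell replicate 1 had a normalized log2 level of 7.15, with the nearest other T-C cell array at 8.23. Before normalization, relative to the blank mean, its log2 intensity was 0.27, with the nearest other T-C cell array at 0.46. miR-34b-3p in control cell replicate 5 had a level of 11.10, with the nearest other control cell array at 10.15, and without that array the miR-34b-3p difference was −0.92. miR-34a-3p in control cell replicate 2 had a level of 7.68, with the nearest other control cell array at 7.71, both at background.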

How the results depend on the processing

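The differences of miR-34a-5p, miR-34b-3p and miR-34c-3p and the arm differences of their hairpins kept their direction under every alternative run. Calls did not. Leaving out single arrays gave 1 to 44 called miRNAs (69 to 102 at an unadjusted p of 0.05), 0 to 2 called members and 2 to 39 called hairpins. It gave log2 differences of −1.37 to −0.92 for miR-34b-3p and −1.72 to −1.22 for miR-34c-3p, and arm differences of −1.38 to −0.93 for miR-34b and −1.72 to −1.20 for miR-34c. T-C cell replicates 1 and 4 and control cell replicates 1, 2, 3 and 5 each took the count of miRNAs to between 1 and 12. No member was called, with the log2 differences of miR-34b-3p and miR-34c-3p and the arm differences of miR-34b and miR-34c in that order, under median centring (14 miRNAs and 7 hairpins called; −1.16, −1.52, −1.14 and −1.49), with the blank mean taken off, at least 1 kept (3 and 0; −1.68, −1.69, −2.02 and −1.55, with 86 miRNAs and 43 hairpins at an unadjusted p of 0.05) and with all miRNAs tested (1 and 2; −1.15, −1.48, −1.16 and −1.48). The same held without both T-C cell replicates 1 and 3 (1 and 2; −0.92, −1.03, −0.94 and −1.02) and with detection on at least 3 arrays, where 8 miRNAs and 17 hairpins passed and miR-34c kept its arm call (−1.15, −1.48 and −1.16 for the others). Without T-C cell replicate 3, 1 member passed. Without normalization 7 hairpins were called and the arm differences of miR-34b and miR-34c, −1.14 and −1.49, did not pass. With both arms required 10 hairpins were called, and the miR-34 hairpins could not be tested. The split of calls was 14 higher and 33 lower with quantile normalization. More miRNAs tested, or fewer arrays, were part of several of these settings; otherwise the cause was not tested. Whether the replicate numbers pair the arrays is not stated. Same-numbered arrays had correlations of −0.20 to 0.26 between their deviations, and 1 of 5 T-C cell samples correlated best with its own number. So few correlations show no clear pairing and cannot exclude it. With the replicate number as a block 22 miRNAs and 8 hairpins were called, miR-34b-3p and miR-34c-3p still passed (adjusted p = 0.0493 and 0.0371), and the miR-34b arm difference of −1.16 did not (adjusted p = 0.0589). Members near the blanks are limited by background, so decreases in them could not be seen.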
